A study of Mus musculus with 2 samples.

Results

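10 interferon-induced genes of ADP-ribosylation, ubiquitin ligation and restriction were examined in single leukemia cells: Parp9, Parp14, Parp12, Dtx3l, Rnf213, Samd9l, Sp100, Trim30a, Isg20 and Ifi27l2a. They are 10 of the 31053 genes in the count tables, and all 10 were found by symbol. The members were chosen by known function and selected on their measured baseline level and on the ratio between the libraries described here. Their higher level is therefore a description and not a finding. The rule had no numeric threshold, so no gene lay just outside it.

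The cells were GFP+ Lin- c-Kit+ splenocytes of mice with AE9a leukemia, a model of acute myeloid leukemia in which a retrovirus carries a shortened AML1/ETO fusion. The study asked how leukemia cells differ when 1 Usp18 allele is deleted, Usp18 being a protease that restrains type I interferon receptor signaling. In both groups the leukemia cells had 1 floxed and 1 intact Usp18 allele and carried a Cre recombinase that becomes active once tamoxifen is given. Sick recipients received oil (Usp18+/f) or tamoxifen (Usp18+/Δ), and cells were sorted 3 days after the injections began. Each group was 1 library, for which 3 mice were pooled and 8000 cells were targeted, so mice could not be told apart. By the study's methods, fetal liver cells had received the retrovirus, which also carries GFP. Leukemia cells from a spleen were passed to young adult wild-type C57BL/6 recipients of both sexes after sublethal irradiation. Host cells could remain in these recipients, and the sort for GFP+ cells selects against them. The agent, oil or tamoxifen, and the state of the allele cannot be told apart in this design.

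The deposited barcodes numbered 7281 for the Usp18+/f-labelled library and 7833 for the Usp18+/Δ-labelled library, with 63690481 and 65146263 UMIs (unique molecular identifiers, each 1 captured RNA molecule). After filtering, 6546 and 7073 cells were kept, with a median of 8575.5 and 8023 UMIs. The libraries shared 15 barcode sequences. Usp18 itself was at 5.68 CPM (counts per 1000000 UMIs of the library; 95% interval 5.09 to 6.33) in the Usp18+/f-labelled library and at 24.1 CPM (22.9 to 25.4) in the Usp18+/Δ-labelled library. Its log2 ratio was 2.08 (1.91 to 2.26), against the direction of the label, and the counts do not separate the deleted from the intact allele. Usp18 is itself an interferon-stimulated gene (ISG), and it was higher along with other ISGs, among them Isg15, whose product Usp18 removes from proteins, at 20.9 and 116 CPM (2.47, 2.38 to 2.55). Directions below are given by label. Of the markers of the sorted cells, Kit was at 96.8 and 102 CPM and Myb at 237 and 226 CPM, Ptprc, which encodes CD45, had 9 and 14 UMIs, and Cd34 was at 6.17 and 16.4 CPM, a log2 ratio of 1.41. Mast cell or basophil markers were present and moved in both directions, among them Cpa3 with a log2 ratio of 0.92 and Mcpt1 with one of -1.14. Of the 4 T cell markers, the sums were 0.207 and 0.118 CPM, of the 4 B cell markers 0.172 and 0.403 CPM, and of the 4 natural killer cell markers 7.20 and 17.4 CPM, nearly all from Nkg7, with Ncr1 and Gzma at 0 in both libraries. The 4 plasmacytoid dendritic cell markers summed to 143 and 257 CPM, nearly all from Bst2, itself an ISG, with Siglech at 0 in both libraries and Ccr9 at 151 and 137 UMIs. The 6 neutrophil markers summed to 0.0344 and 22.6 CPM, with S100a8 in 0 and 5 cells. The 6 macrophage markers summed to 3.81 and 7.31 CPM. The 6 erythroid markers had the highest sums, 4529 and 4577 CPM, with log2 ratios from -0.23 to 0.39. Among them, Car1 was at 1892 and 1992 CPM and Hba-a1 at 1053 and 919 CPM. The part of any of these markers in the results was not tested. With 1 library per group no test was possible, and all intervals cover counting error only.

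Type I interferons bind the receptor chains IFNAR1 and IFNAR2, and the receptor kinases then set off transcription of ISGs. DNA elements named ISRE and GAS are known in the promoters of such genes. The members act late in this response: PARP enzymes attach ADP-ribose to proteins, ubiquitin ligases mark proteins, and nuclear and cytoplasmic effectors act on viral or cellular nucleic acids and membranes.

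Promoter sequence is shown for members with a match to either element and for Dtx3l, whose start lies inside its overlap with Parp9. RefSeq promoter windows on GRCm38.p6, from 250 bases before to 50 bases after a transcript start, were at hand for 7 of the 10 members, in 11 windows. Parp9, Parp14 and Ifi27l2a had none. The letters GAAANNGAAA (ISRE) and TTCNNNGAA (GAS) were searched on both strands, without overlap between matches of one and the other in any of the 11 windows. GAAANNGAAA was found in 3.44% of all 32851 windows and, among the members, in both windows of Trim30a. TTCNNNGAA was found in 8.30% of all windows and, among the members, in 1 of 3 windows of Isg20. In the sequences, printed 5′ to 3′ on the strand of the gene, capitals mark the match. In the upstream Trim30a window it is TTTCTTTTTC at positions -36 to -27 from the start, the element read on the opposite strand, and in the other Trim30a window the same letters lie at positions 2 to 11, with the start base as 0. In Isg20 it is TTCTTGGAA at positions -73 to -65. A match is a description and not a site, and a window without one says only that these letters are not in it.
Trim30a, chr7:104465144-104465443, minus strand: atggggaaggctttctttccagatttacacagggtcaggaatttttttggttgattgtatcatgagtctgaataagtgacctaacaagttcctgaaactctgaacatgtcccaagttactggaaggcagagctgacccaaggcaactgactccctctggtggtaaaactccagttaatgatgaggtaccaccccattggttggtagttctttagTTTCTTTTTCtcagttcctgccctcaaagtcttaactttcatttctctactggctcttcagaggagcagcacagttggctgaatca
Isg20, chr7:78913174-78913473, plus strand: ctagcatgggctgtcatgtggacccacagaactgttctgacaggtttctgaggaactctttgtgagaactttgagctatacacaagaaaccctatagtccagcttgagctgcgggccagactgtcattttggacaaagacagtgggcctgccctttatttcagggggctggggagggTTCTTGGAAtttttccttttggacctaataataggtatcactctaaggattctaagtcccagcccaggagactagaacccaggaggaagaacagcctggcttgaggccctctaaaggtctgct
Dtx3l, chr16:35938978-35939277, minus strand: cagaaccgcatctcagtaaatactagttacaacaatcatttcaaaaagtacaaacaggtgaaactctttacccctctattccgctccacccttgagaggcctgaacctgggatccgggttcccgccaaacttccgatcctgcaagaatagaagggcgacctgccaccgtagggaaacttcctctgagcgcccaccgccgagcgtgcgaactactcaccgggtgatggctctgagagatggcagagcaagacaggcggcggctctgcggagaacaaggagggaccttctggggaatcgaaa

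All 10 members had more UMIs per 1000000 in the Usp18+/Δ-labelled library, by 1.53-fold (Parp14) to 2.74-fold (Isg20). Their summed level was 413 CPM in the Usp18+/f-labelled library and 866 CPM in the Usp18+/Δ-labelled library, a log2 ratio of 1.07 (1.05 to 1.09). The median log2 ratio of the 10 members was 1.10, beside 0.0074 over all 8879 genes that averaged 5 CPM or more. Of the members, 10 of 10 were at least 1.5-fold higher, beside 1.17% of all genes, and 7 were at least 2-fold higher, beside 0.473%. Since this contrast chose the members, nothing is read from those counts. Among the members, Parp14, Dtx3l and Parp12 had log2 ratios between 0.61 and 0.76, and the other 7 had ratios between 1.06 and 1.45.

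**Figure D1:**
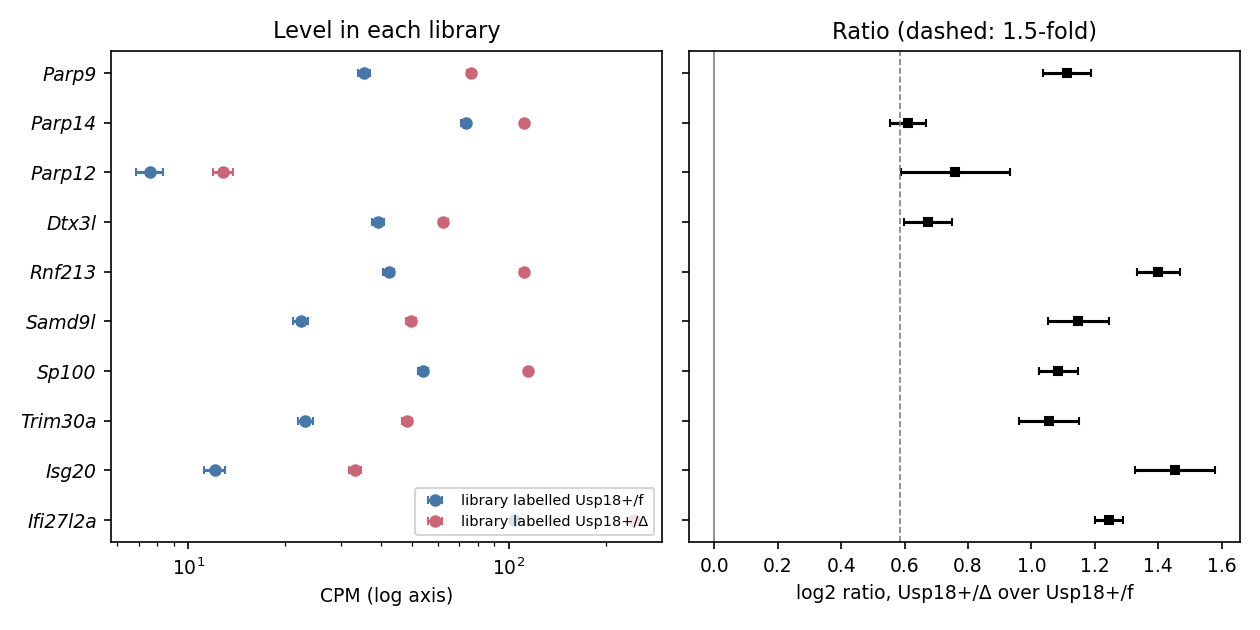
Left, level of each member in CPM (log axis) in the Usp18+/f-labelled library (blue) and the Usp18+/Δ-labelled library (red), with exact Poisson 95% intervals. Right, log2 ratio with its exact conditional 95% interval; Parp14, Parp12 and Dtx3l lie nearest the dashed line at 1.5-fold, and Isg20 and Rnf213 farthest from it.

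Among the genes of ADP-ribosylation, PARP9 forms a complex with the ubiquitin ligase DTX3L, and the Parp9 and Dtx3l genes share a start region on chromosome 16. In mm10, Parp9 (ENSMUSG00000022906, chr16:35938470-35972605, plus strand) and Dtx3l (ENSMUSG00000049502, chr16:35926511-35939151, minus strand) overlap over 682 bases at their 5′ ends. Parp9 was at 35.2 CPM (33.7 to 36.8) in the Usp18+/f-labelled library and 76.2 CPM (74.0 to 78.4) in the Usp18+/Δ-labelled library, a log2 ratio of 1.11 (1.04 to 1.19). Dtx3l was at 39.1 CPM (37.5 to 40.7) and 62.4 CPM (60.4 to 64.4), a log2 ratio of 0.67 (0.60 to 0.75). The neighbours thus changed order: there were 0.901 Parp9 UMIs per Dtx3l UMI in the Usp18+/f-labelled library and 1.22 in the Usp18+/Δ-labelled library. The difference between their log2 ratios was 0.44 (0.33 to 0.54, Wald interval), which lies outside counting error of 0. Both ratios belong to the contrast that chose the members. With 1 library per group the interval holds no spread between libraries, and the difference was not tested.

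PARP14, a mono-ADP-ribosyltransferase with macrodomains, is encoded on the same chromosome as the pair, 54966 bases from Dtx3l. Parp14 (ENSMUSG00000034422, chr16:35832874-35871544, minus strand) was at 73.2 CPM (71.0 to 75.4) and 112 CPM (109 to 114). Its log2 ratio of 0.61 (0.55 to 0.67) was the lowest of the 10, and it was near that of Dtx3l, with a difference of -0.065 (-0.16 to 0.029). PARP12, a mono-ADP-ribosyltransferase with zinc fingers, was the least abundant member. Parp12 (ENSMUSG00000038507, chr6:39086410-39118349, minus strand) had 440 and 763 UMIs, or 7.58 CPM (6.89 to 8.32) and 12.8 CPM (11.9 to 13.8). Its log2 ratio was 0.76 (0.59 to 0.93), and its difference from Parp14 was not detectable at this depth (-0.15 for Parp14 minus Parp12, -0.33 to 0.029). Parp9 lay above both, by 0.50 (0.41 to 0.60) over Parp14 and 0.35 (0.17 to 0.54) over Parp12.

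RNF213 is a very large AAA+ ATPase and ubiquitin ligase, and SAMD9L is a cytoplasmic restriction factor in which inherited gain of function affects blood cell formation. Rnf213 (ENSMUSG00000070327, chr11:119393100-119487418, plus strand) was at 42.1 CPM (40.5 to 43.8) in the Usp18+/f-labelled library and 111 CPM (109 to 114) in the Usp18+/Δ-labelled library. Its log2 ratio was 1.40 (1.33 to 1.47), and it added 69.1 CPM, the second largest addition after Ifi27l2a. Reads of Rnf213 and of A930037H05Rik, which overlaps it on the opposite strand, are separated only as far as the strand was used in counting. Samd9l (ENSMUSG00000047735, chr6:3372257-3399572, minus strand) was at 22.4 CPM (21.2 to 23.6) and 49.6 CPM (47.9 to 51.5), a log2 ratio of 1.15 (1.05 to 1.24).

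SP100 is a constituent of PML nuclear bodies, and TRIM30A is a TRIM-family protein known to restrain innate signaling in mice. Sp100 (ENSMUSG00000026222, chr1:85649988-85709998, plus strand) was at 54.0 CPM (52.1 to 55.9) and 114 CPM (112 to 117), a log2 ratio of 1.09 (1.02 to 1.15). Trim30a (ENSMUSG00000030921, chr7:104409025-104465193, minus strand) was at 23.2 CPM (22.0 to 24.4) and 48.2 CPM (46.4 to 49.98), a log2 ratio of 1.06 (0.96 to 1.15). Trim30a lies among close paralogs, between which the counting could split reads, so its level is uncertain. Summed with Trim30b, Trim30c and Trim30d, its log2 ratio was 1.14.

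ISG20 is an exonuclease that degrades single-stranded RNA, and IFI27L2A is a small hydrophobic interferon-induced protein. Isg20 (ENSMUSG00000039236, chr7:78913424-78920396, plus strand) was at 12.1 CPM (11.2 to 13.0) in the Usp18+/f-labelled library and 33.1 CPM (31.7 to 34.6) in the Usp18+/Δ-labelled library. Its log2 ratio of 1.45 (1.33 to 1.58) was the highest, but it was not distinguishable from that of Rnf213 (difference 0.052, -0.090 to 0.19). Ifi27l2a (ENSMUSG00000079017, chr12:103442167-103443680, minus strand) was the most abundant member in both libraries, at 104 CPM (101 to 107) and 246 CPM (242 to 250). Its log2 ratio was 1.24 (1.20 to 1.29). Its paralog Ifi27l2b was at 10.9 and 24.0 CPM, a log2 ratio of 1.14 (1.001 to 1.27), and the difference between the paralogs was 0.11 (-0.034 to 0.25).

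In level, counted as molecules at the 3′ end and so not scaled by transcript length, Ifi27l2a, Parp14, Sp100 and Rnf213 led in the Usp18+/f-labelled library. They were followed by Dtx3l, Parp9, Trim30a, Samd9l, Isg20 and Parp12. The intervals of Rnf213 and Dtx3l overlapped, as did those of Trim30a and Samd9l. In the Usp18+/Δ-labelled library, Sp100, Parp14 and Rnf213 had overlapping intervals behind Ifi27l2a, Parp9 lay above Dtx3l, and Samd9l and Trim30a again overlapped. Baseline level and ratio did not go together in a simple order: the second most abundant member at baseline, Parp14, and the least abundant, Parp12, both lay in the lower range of ratios, while Isg20, next to last in level, had the highest ratio.

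The share of cells with at least 1 UMI was compared at equal depth, by drawing 3000 UMIs at random from each cell (thinning); 456 and 350 cells were too shallow, and 6090 and 6723 entered. No cluster of these cells is a type that should lack the members, so no background share from free RNA could be set. In this draw, 10 of 10 members were found in at least 1.5-fold more cells, beside 1.14% of all genes, again on the contrast that chose them. The count depended on the draw and the depth: it was 9 in the mean of 20 draws, where Parp14 fell below the limit at 0.50, and 8 in another draw, where Dtx3l did so too. It was 7 at 5000 UMIs, without Parp14, Dtx3l and Parp12, and 7 unthinned, without Parp14, Dtx3l and Ifi27l2a. For Ifi27l2a the share was 23.3% (22.2 to 24.3) and 41.3% (40.1 to 42.5), and without thinning 45.1% and 64.8%. For Rnf213 it was 12.1% (11.3 to 12.9) and 25.9% (24.9 to 27.0), and without thinning 28.7% and 50.2%. These members were thus found in a minority of thinned cells in either library. Parp9 was found in 10.2% (9.46 to 11.001) and 20.8% (19.8 to 21.8), and without thinning in 25.3% and 42.8%. Isg20 was found in 3.63% (3.17 to 4.13) and 9.06% (8.38 to 9.77), and without thinning in 9.41% and 19.8%. Parp12 was the rarest, in 2.27% (1.91 to 2.67) and 3.82% (3.38 to 4.31), and without thinning in 6.22% and 9.47%. The other 5 members ranged from 6.27% to 18.8% of thinned cells in the Usp18+/f-labelled library and from 13.7% to 29.0% in the Usp18+/Δ-labelled library. Without thinning these 5 ranged from 16.7% to 43.2% and from 29.4% to 56.2%.

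Ifi27l2a, the most abundant member, had the largest gap between the share of cells expected from an even spread and the measured share. This gap can grow with level, so members of unlike level are not ranked by evenness here. Had Ifi27l2a UMIs fallen on thinned cells at random with equal chance, 29.2% and 57.0% of cells would have held at least 1, more than the 23.3% and 41.3% that did. A single cell held up to 31 Ifi27l2a UMIs in the Usp18+/f-labelled library and up to 59 in the Usp18+/Δ-labelled library. For Parp9 the corresponding even-spread shares, 10.3% and 22.1%, were close to the measured ones. For Rnf213 they were 12.3% and 29.0%, so that it was near even in the Usp18+/f-labelled library and less so in the Usp18+/Δ-labelled library. Cells with 2 or more Rnf213 UMIs were 0.870% and 5.90% of thinned cells. For Isg20 the even-spread shares were 3.69% and 10.2%, beside 3.63% and 9.06% measured.

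Members were then counted per cell. At 3000 UMIs, a cell held UMIs of 1.11 members on average in the Usp18+/f-labelled library and of 2.04 in the Usp18+/Δ-labelled library. No member was found in 32.8% and 14.6% of cells. At least 3 members were found in 9.64% (8.91 to 10.4) and 33.0% (31.9 to 34.1), which gives a log2 ratio of 1.78 (1.65 to 1.90). That draw was the highest of 20 random thinnings, whose mean was 1.66 and whose lowest was 1.60. At least 5 members were found in 0.690% (0.497 to 0.931) and 7.12% (6.52 to 7.77), and the cell with the most members had 7 in one library and 9 in the other.

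**Figure D2:**
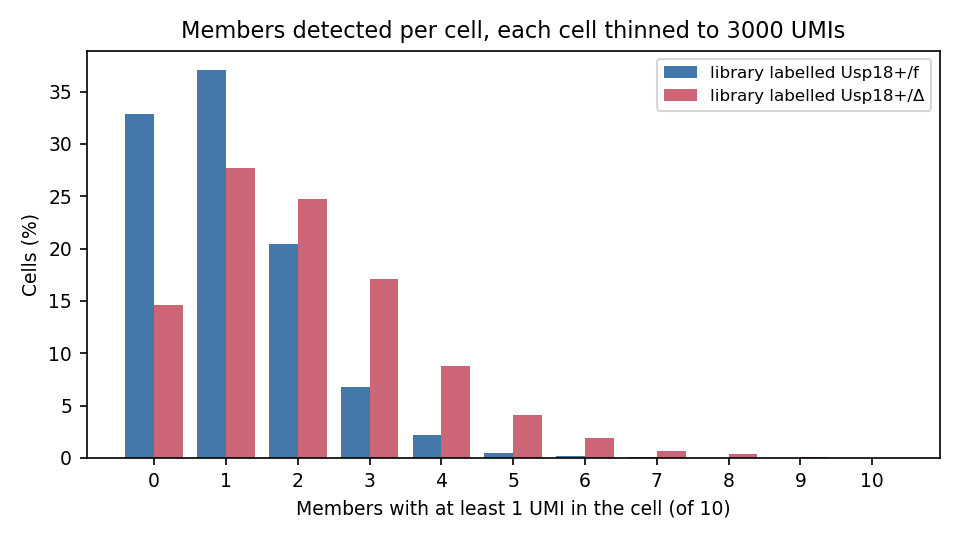
Percent of thinned cells (3000 UMIs each) by the number of members with at least 1 UMI, in the Usp18+/f-labelled library (blue, 6090 cells) and the Usp18+/Δ-labelled library (red, 6723 cells). Cells without any member are 32.8% and 14.6%, and the red bars are the taller ones from 2 members on.

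Co-detection of members in the same cell was also described. Over the 45 pairs of members, the median Pearson r of UMIs across thinned cells was 0.032 (-0.0053 to 0.10) in the Usp18+/f-labelled library and 0.10 (0.017 to 0.22) in the other, where the brackets give the lowest and highest pair. These values are descriptions across cells of 1 library, which share that library and its sparse counts, and weak correlations of this size are no finding. Both r and the shares below can go up with the members' level alone, which differed between the libraries, and no value expected from level was computed. The highest pair in the Usp18+/Δ-labelled library was Rnf213 with Isg20, at 0.22, and it was at 0.015 in the other library. There, Isg20 was found in 15.3% (13.6 to 17.0) of cells with Rnf213 and 6.89% (6.20 to 7.63) of cells without it, while in the Usp18+/f-labelled library these shares were 3.80% (2.54 to 5.45) and 3.605% (3.12 to 4.14). Dtx3l was found in 14.95% (12.2 to 18.0) of cells with Parp9 and 11.01% (10.2 to 11.9) of cells without it in the Usp18+/f-labelled library. In the Usp18+/Δ-labelled library the shares for that neighbouring pair were 24.0% (21.8 to 26.4) and 15.9% (14.9 to 16.9), and its r was 0.055 and 0.11, not among the highest.

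Related genes put the members beside their families. Of the 13 other PARP family genes, 10 averaged 5 CPM or more, and 0 of these were at least 1.5-fold different. Their median log2 ratio was 0.11, from -0.14 for Parp6 to 0.43 (0.32 to 0.54) for Parp10, with Parp1, the DNA damage sensor, at 298 and 297 CPM. Zc3hav1, the antiviral zinc finger protein of the family, was at 72.4 and 81.8 CPM, a log2 ratio of 0.18 (0.12 to 0.23). Among the Deltex ligases, of which 3 of 4 passed the level filter, Dtx2 and Dtx3 had ratios of -0.0074 and 0.091. Dtx4 stood apart at 4.13 and 18.8 CPM, a log2 ratio of 2.18 (1.98 to 2.39), above that of Dtx3l. Of 4 genes of PML nuclear bodies or the SP family, 0 were at least 1.5-fold higher, with ratios from 0.32 (Daxx) to 0.49 (Pml), below that of Sp100. Of 12 TRIM genes, 9 were measured at this level and 4 were at least 1.5-fold higher, beside 1.17% of all genes. These were Trim34a at 0.92, Trim5 at 0.70, Trim21 at 0.69 and Trim12a at 0.60, all below Trim30a. The ranges of the families are descriptions of these libraries, and no list was tested.

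The other ISGs, 57 of which were in the tables, had a median log2 ratio of 0.84 over the 38 that averaged 5 CPM or more, of which 29 were at least 1.5-fold higher, beside the same 1.17% of all genes. The 3 highest were Ifit1 at 3.55, Oasl2 at 3.52 and Rtp4 at 2.96, from 1.26, 1.08 and 3.53 CPM in the Usp18+/f-labelled library. The 3 lowest were Ifi204 at -0.14, Ly6e at 0.0076 and Psmb9 at 0.042. The members thus lay inside the range of the ISGs, with none above 1.45. Of the receptor chains and their kinases, Ifnar1, Ifnar2, Jak1 and Tyk2 had log2 ratios between 0.0032 and 0.11. Downstream, Stat2 had a ratio of 0.72 and Irf9 one of 0.59.

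**Figure D3:**
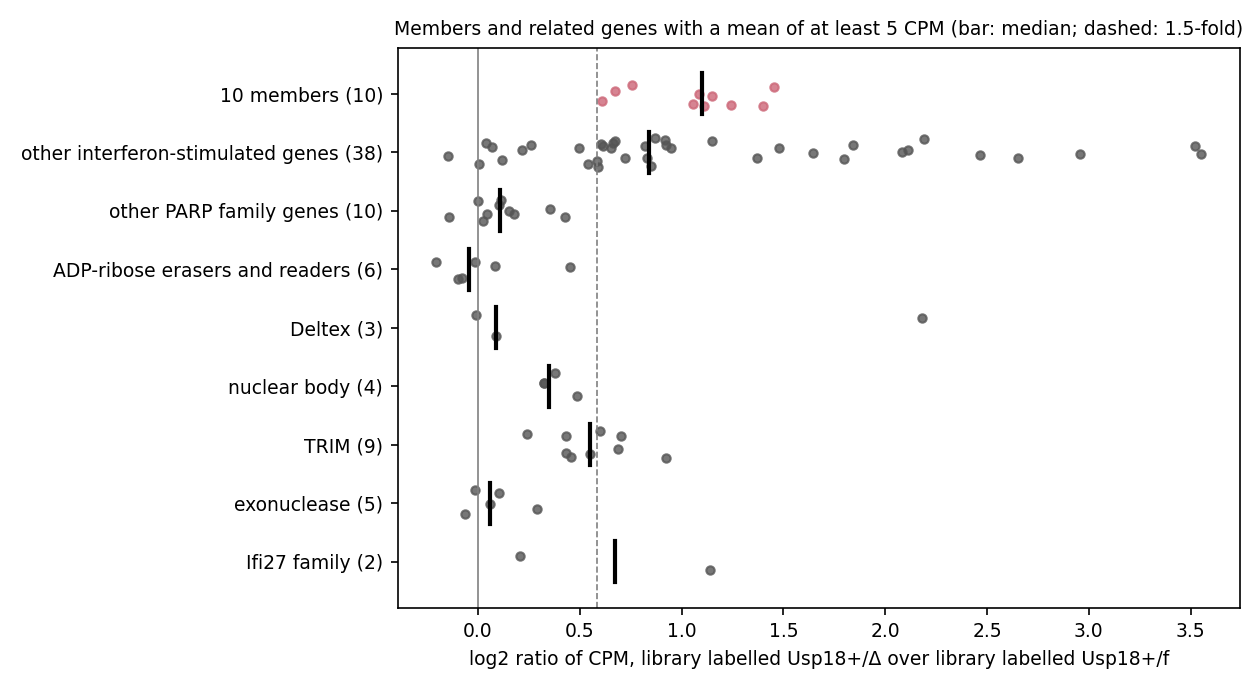
Log2 ratio of CPM, library labelled Usp18+/Δ over library labelled Usp18+/f, for each member (red) and each gene of 8 related lists (grey) that averaged 5 CPM or more; black bars are medians and the number of genes is in brackets. The members span 0.61 to 1.45, the other PARP family genes -0.14 to 0.43, and the other ISGs -0.14 to 3.55; vertical scatter within a list carries no value.

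Cells were next grouped by their UMIs of the other ISGs at 3000 UMIs, to ask whether the higher member level sat in few strongly responding cells. Cells with over 10 such UMIs were 4.30% of thinned cells in the Usp18+/f-labelled library and 20.4% in the Usp18+/Δ-labelled library, 262 and 1371 cells. They held 7.68% and 37.9% of all member UMIs, and in the Usp18+/Δ-labelled library from 32.0% (Parp14) to 47.3% (Isg20). In those cells the summed member level was 779 and 1762 CPM, a log2 ratio of 1.18 (1.06 to 1.30). Yet the difference was not confined to them. In the cells with 0 to 10 such UMIs the sum was 421 and 741 CPM, a log2 ratio of 0.82 (0.77 to 0.86), against 1.12 (1.08 to 1.16) over all thinned cells. Each of the 10 members was higher in these cells too, from 0.46 (0.12 to 0.80) for Parp12 to 1.05 (0.87 to 1.24) for Samd9l. This contrast chose the members, and no share over all genes was computed for these groups, so nothing is read from that count. The cells with 0 to 10 such UMIs were also of unlike make-up. Those with 1 to 2 were 10.6% and 4.89% of thinned cells, and those with 6 to 10 were 42.2% and 47.1%. With 3 to 5 such UMIs the sum had a ratio of 0.66 (0.59 to 0.73), and with 1 to 2 a ratio of 0.65 (0.48 to 0.81). Cells without any UMI of the other ISGs were only 46 and 18, and their ratio was 0.32 (-0.45 to 1.06). This value depended on the thinning: at 1500 UMIs per cell it was 0.68 (0.41 to 0.94), above 0, so whether these cells differed is not settled here.

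Isg20 had the steepest profile over these groups in the Usp18+/Δ-labelled library. From cells with 3 to 5 ISG UMIs to cells with over 10, it went from 18.5 to 83.2 CPM. Rnf213 went from 74.7 to 225 CPM and Ifi27l2a from 168 to 550 CPM. The profiles of Parp14, from 90.0 to 189 CPM, and Dtx3l, from 50.2 to 110 CPM, were the flattest. In the Usp18+/f-labelled library, Trim30a was the steepest over the same groups, from 22.5 to 64.9 CPM, and Isg20 went from 11.6 to 21.6 CPM. The grouping genes and the members were read from the same cells, so these profiles describe co-expression and carry no test.

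**Figure D4:**
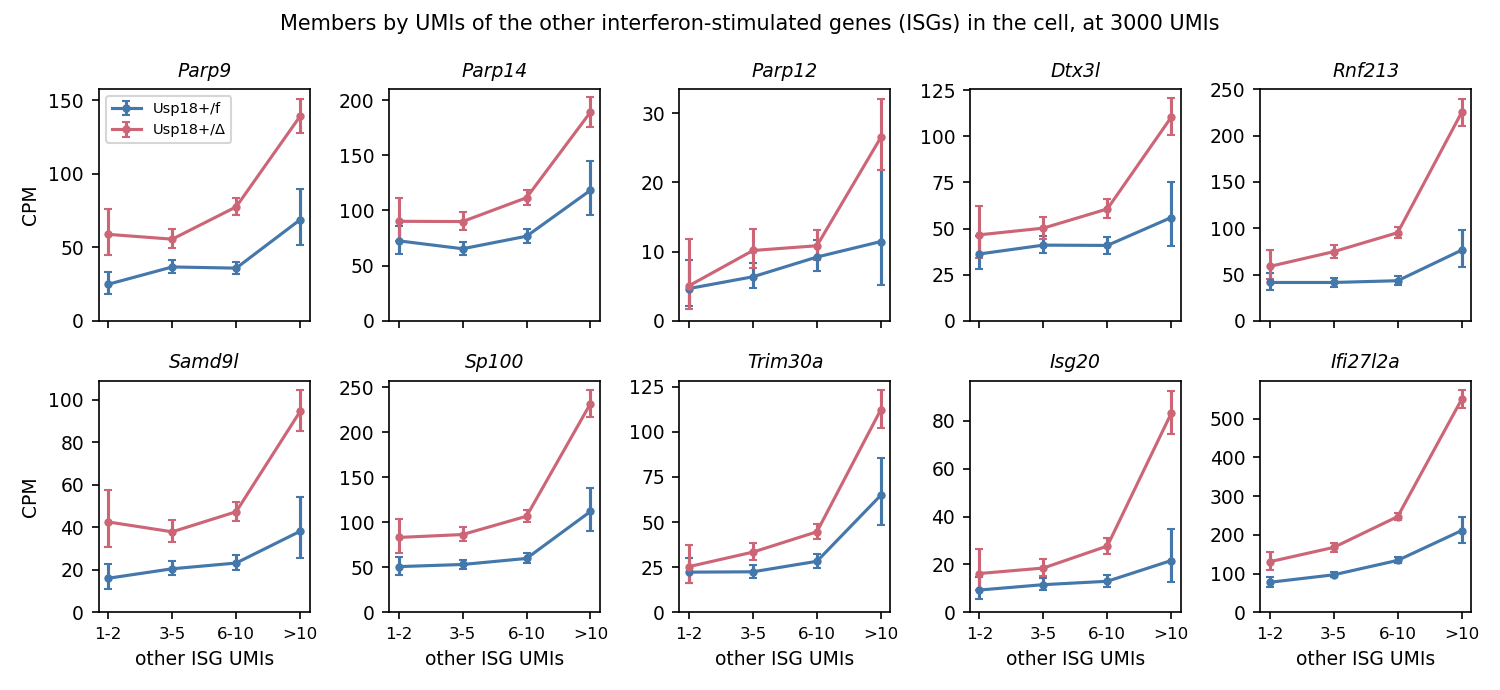
CPM of each member in cells with 1 to 2, 3 to 5, 6 to 10 and over 10 UMIs of the other ISGs, each cell thinned to 3000 UMIs, in the Usp18+/f-labelled library (blue) and the Usp18+/Δ-labelled library (red), with exact Poisson 95% intervals. The red points lie above the blue ones in each panel, and the gap is widest in CPM at over 10 ISG UMIs; cells with 0 ISG UMIs (46 and 18) are not drawn.

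Member levels differed between cell cycle phases within each library, a comparison that the choice of members did not use. Phases were scored from cycle genes, with G1 for cells low in both S and G2/M genes. In the Usp18+/f-labelled library, 9 of 10 members were at least 1.5-fold higher in G1 than in G2/M cells, beside 13.2% of all genes. In the Usp18+/Δ-labelled library this held for 10 of 10, beside 14.7%. Trim30a had the largest ratio, with 41.2 CPM in G1 and 18.1 CPM in G2/M of the Usp18+/f-labelled library, a log2 ratio of 1.19 (0.99 to 1.38). Sp100 followed at 95.7 and 44.5 CPM, a log2 ratio of 1.10 (0.98 to 1.23). Rnf213 was the exception at 47.1 and 39.8 CPM, 0.25 (0.079 to 0.41), and in the Usp18+/Δ-labelled library it was at 157 and 95.8 CPM, 0.71 (0.63 to 0.80). G1 cells were shallower, with a median of 6073.5 UMIs against 10333 in the Usp18+/f-labelled library and 5396 against 10183 in the other, and member levels also went with depth: from the shallowest to the deepest of 4 depth bins the sum went from 616 to 355 CPM in the Usp18+/f-labelled library and from 1392 to 718 CPM in the other. From G1 to G2/M it went from 651 to 365 CPM and from 1432 to 715 CPM, so phase and depth were not separated here. Between the libraries, the contrast that chose the members, all 30 ratios of a member within a phase were above 0, beside 51.9% of the ratios of all genes, from 0.52 for Parp14 in G2/M to 1.73 for Rnf213 in G1. All 40 ratios within the 4 depth bins were above 0 as well, beside 51.4% for all genes, from 0.50 to 1.65.

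8 clusters were made without the members, the ISGs and the sex genes. The summed member level was highest in cluster 6, led by Serpinb1a, Mcpt2, Csf2rb2 and Cpa3, which held 7.42% of cells in the Usp18+/f-labelled library and 16.1% in the Usp18+/Δ-labelled library. Hbb-bt and Hbb-bs were also among its leading genes. In cluster 6 the sum was 848 and 1724 CPM, against 394 and 781 CPM in the other clusters. Ifi27l2a differed most between clusters, at 349 CPM in cluster 6 against 93.1 CPM elsewhere in the Usp18+/f-labelled library, a log2 ratio of 1.91 (1.80 to 2.01). In the Usp18+/Δ-labelled library it was at 622 and 209 CPM, 1.57 (1.52 to 1.63). Rnf213 was nearly level in the Usp18+/f-labelled library, at 46.2 and 42.0 CPM (0.14, -0.15 to 0.41), and was higher in cluster 6 of the other library, at 167 and 106 CPM (0.66, 0.56 to 0.76). Cluster 2, led by S100a9, S100a8 and Camp, came second in the sum, at 622 and 1401 CPM, and its S100a8 UMIs lay in few cells. Clusters 6 and 2 were shallow, with a median of 4583 and 6273 UMIs against 7500.5 to 12832 in clusters 0, 1, 3, 4 and 5, so cluster and depth were not separated either. Cluster 7 was shallower still, at 1058.5 UMIs, with a sum of 561 and 930 CPM. These values are descriptions, since a cluster against the rest is no test.

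The larger share of cluster 6 moved with the result. With each cluster's level in the Usp18+/Δ-labelled library weighted by the cluster shares of UMIs in the other library, the sum was 819 CPM and its log2 ratio 0.99 in place of 1.07. By member the weighted ratios ran from 0.57 (Parp14) to 1.35 (Rnf213). Within clusters, 77 of 78 ratios of members were above 0, beside 52.6% for all genes with a UMI in both libraries, again on the contrast that chose the members. The exception was Parp14 in cluster 7, at -0.022 (-1.41 to 1.12), a cluster of 308 and 44 shallow cells with few mitochondrial UMIs. In cluster 6 alone, Rnf213 had a log2 ratio of 1.85 (1.57 to 2.15) and Ifi27l2a one of 0.83 (0.72 to 0.94), farther apart than the 1.40 and 1.24 over the whole libraries.

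**Figure D5:**
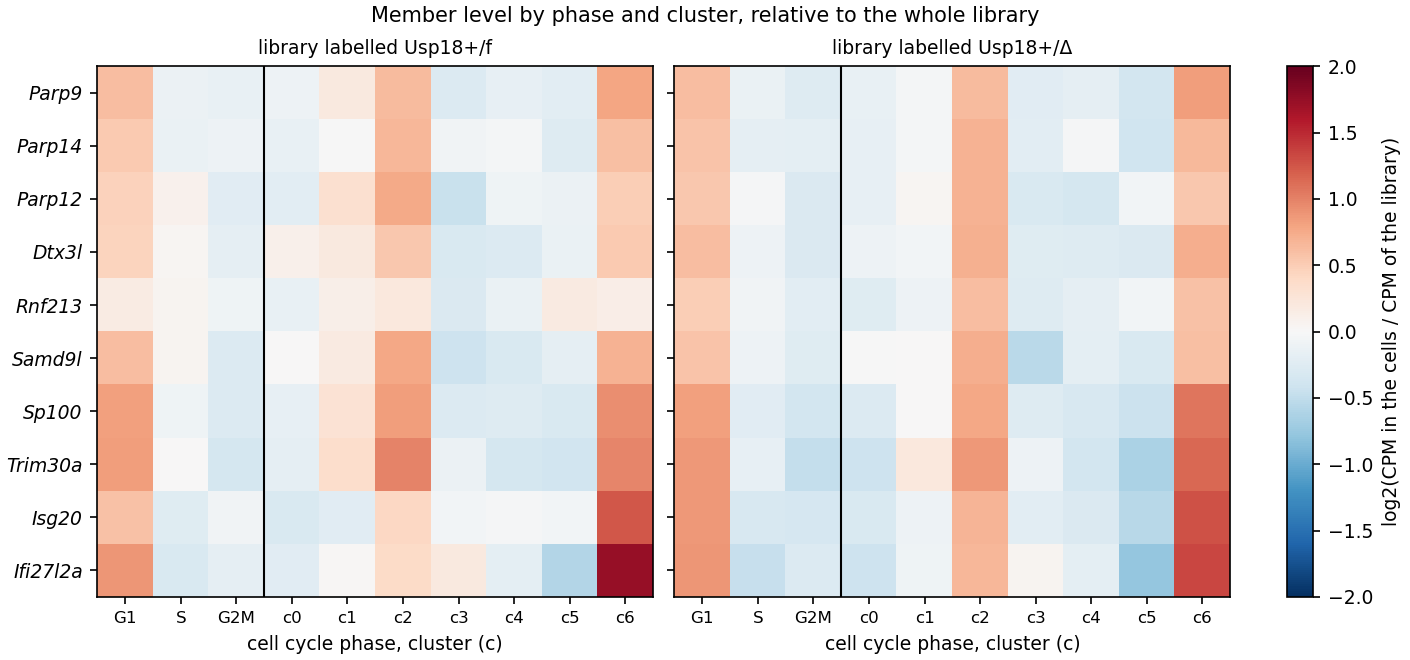
Level of each member in cells of a cell cycle phase (G1, S, G2M) or cluster (c0 to c6), as log2 of its CPM there over its CPM in the whole library; left, library labelled Usp18+/f; right, library labelled Usp18+/Δ. Red columns at G1, cluster 2 and cluster 6 are shared by both libraries; Ifi27l2a is at its highest in cluster 6, and Rnf213 is near 0 throughout on the left. Cluster 7 is left out because it holds 44 cells in one library.

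The share of mitochondrial UMIs moved with the size of the difference. The summed ratio was 1.03 in cells with 5 to 7% and 1.03 in cells with 7 to 10% mitochondrial UMIs. It was 1.46 (1.39 to 1.53) in cells with 3 to 5% and 1.76 (1.54 to 1.97) in the 375 and 96 cells under 3%. In the latter, Ifi27l2a was at 101 and 922 CPM, a log2 ratio of 3.19 (2.78 to 3.61), from 66 and 216 UMIs. Trim30a was at 23.0 and 124 CPM, 2.43 (1.48 to 3.43), from 15 and 29 UMIs. Parp14 did not differ detectably in these cells, at 109 and 107 CPM, -0.028 (-0.75 to 0.65). Parp12 was not above 0 in them either, at -0.11, and its interval did not lie below 0. The cells under 3% were of different clusters in the libraries. Cluster 7 held 304 of 375 and 42 of 96 of them, and cluster 6 held 9 and 39. Cluster 6 also held 199 of the 216 Ifi27l2a UMIs in the Usp18+/Δ-labelled library and 15 of the 66 in the other, so these ratios set unlike cells side by side.

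The genes most like the members were found by the Pearson r across thinned cells between a gene's UMIs and the summed member UMIs, a member being left out of its own sum, taking the lower r of both libraries over 5984 genes that averaged 20 CPM or more. The 10 highest were Hba-a1 at 0.22, Malat1 at 0.21, Isg15 at 0.20, Csf2rb at 0.20, Il1rl1, Hbb-bs, Ypel3, Cd200r3, Hbb-bt and Csf2rb2 at 0.17. Of these, Isg15 was on the ISG list, and its r was 0.39 in the Usp18+/Δ-labelled library, the highest there, ahead of Malat1 at 0.34. Among the members themselves, Sp100 had the highest lower r with the rest, 0.14, and Dtx3l the lowest, 0.062, with Parp12 under the level filter. Cells are not replicates and all points share a library, so these values are given without a p.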

How the data were processed

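Libraries were made with the 10x Genomics 3′ V3 kit, and the authors aligned and counted reads with Cell Ranger 3.0.2 on mm10. The deposited values are raw UMI counts per gene and cell barcode, without normalization. The authors' later steps were not used here. Barcodes under 500 genes or over 10% mitochondrial UMIs were left out. Scrublet in scanpy 1.11.5 (expected rate 6%) marked 0.0436% and 0.0270% of cells with its automatic threshold, below the 0.5% taken as the least for a working call, so cells above the 95th percentile of its scores were removed, 340 and 333. This left 58068183 and 59503327 UMIs, in which a count of 0 allows up to 3 UMIs, or 0.0517 and 0.0504 CPM.

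UMIs were summed over the kept cells of a library and scaled to CPM (Python 3.11.15, NumPy 2.4.6, SciPy 1.17.1). Levels carry exact Poisson, shares Clopper-Pearson, ratios of sums exact conditional and ratios of shares score intervals (statsmodels 0.14.6), at 95%. These functions were tested on simulated data. Clusters used 10000 UMIs per cell, log1p, 2000 variable genes, 30 components, 20 neighbours and Leiden resolution 0.8. Coordinates are from GENCODE vM21, to which 30934 of 31053 genes matched by identifier, and promoters from RefSeq on GRCm38.p6. Cell Ranger counts reads that map uniquely, so close paralogs lose reads. The members and lists were chosen with earlier results of these data known. Named genes are the members, Usp18, the 3 highest and 3 lowest other ISGs, relatives at least 1.5-fold different and the 10 genes most like the members. The remaining named genes (among them Parp1, Parp6, Parp10, Zc3hav1, Dtx2, Dtx3, Pml, Daxx, Ifnar1, Jak1 and the Trim30 paralogs) were chosen after their values were seen. Some results of the plan are not reported here. Alternatives varied the cell filter, doublets, averaging, scaling, level filter, fold and thinning.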

Additional observations from a re-analysis of the deposited data

Results flagged for a closer look

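Barcodes that the filters left out were read for the summed members as well, since they belong to no comparison above. In each of 3 sets the sum was higher in the Usp18+/Δ-labelled library than in the Usp18+/f-labelled library. This is again the contrast that chose the members, in the same libraries. No value over all genes was computed for these barcodes, so nothing is read from it. With over 10% mitochondrial UMIs (290 and 404 barcodes) the sum was 412 and 817 CPM, a log2 ratio of 0.99 (0.82 to 1.16). In barcodes with under 500 genes and at most 10% mitochondrial UMIs (105 and 23) it was 557 and 1510 CPM, 1.44 (0.56 to 2.28), from only 34 and 20 UMIs. In the top 5% of doublet scores (340 and 333) it was 427 and 856 CPM, 1.003 (0.92 to 1.08).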

How the results depend on the processing

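Over 21 alternatives, none turned the direction of a member's level or share, and members at least 1.5-fold higher numbered 10 except 9 without cluster 6 and 7 without cells of over 10 UMIs of the other ISGs (both chosen after seeing the data). These counts rest on the contrast that chose the members. No share of all genes at least 1.5-fold higher was computed in these settings, so nothing is read from the counts. All deposited barcodes, kept doublets and both other scalings left each member's CPM ratio, their median and their sum within the counting interval. With at most 5% mitochondrial UMIs, log2 ratios were larger: members' median 1.44, sum 1.47, other ISGs 1.19, other PARP family genes 0.30, cells with at least 3 members 2.08. The sum was 1.11 from per-cell means and 1.005 without Ifi27l2a. The other ISGs' median was 0.92 from 1 CPM and 0.63 from 20 CPM. The ratio for cells with at least 3 members depended on depth, 2.25 at 1500 UMIs, 1.16 at 5000 and 0.64 unthinned, and on the number, 0.94 at 2 members and 3.37 at 5. Without cluster 7 it was 1.61, within the spread of random thinnings. Without cluster 6 it was 1.63, also within that spread, while the members' median was 1.01 and the sum 0.99. Without the cells of over 10 ISG UMIs, the median was 0.86, the sum 0.80 and the other ISGs 0.55. In cells without ISG UMIs the sum's ratio ran from -0.39 to 0.997, with an interval above 0 at 1500 UMIs (0.68, 0.41 to 0.94), with doublets kept (0.997, 0.26 to 1.73) and without cluster 6 (0.91, 0.20 to 1.63), and at 5000 UMIs no ratio could be formed. A 2-fold limit left 7 members. No pairing of samples could be analysed. No paired analysis was possible because there is 1 library for either genotype. Depth limits Parp12 and Isg20 most; spread between mice cannot be measured.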

Other observations

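Of 7 genes that remove or read ADP-ribose, 6 were measured and 0 were at least 1.5-fold different, where 1.17% of all genes were higher and 0.180% lower by as much. Their median log2 ratio was -0.045. Parg, the main glycohydrolase for chains, was at 35.1 and 37.2 CPM, and Nudt16, a hydrolase, was the highest, with 871 and 1222 UMIs, 0.45 (0.33 to 0.58). Among 5 exonucleases related to Isg20, 0 were at least 1.5-fold different, with Aen the highest at 30.4 and 37.2 CPM, 0.29 (0.20 to 0.38). The rarer Trim30 paralogs had higher ratios than Trim30a: Trim30d had 84 and 286 UMIs, a log2 ratio of 1.73 (1.38 to 2.10), and Trim30b had 10 and 97 UMIs, 3.24 (2.30 to 4.35). The difference of Trim30a minus Trim30d was -0.68 (-1.04 to -0.31). In the Ifi27 family, Ifi27 was at 215 and 248 CPM, 0.21 (0.17 to 0.24), while Ifi27l2a had 1.24.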
